A study of Mus musculus with 12 samples.

Results

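Ribosome footprints were measured on 9 genes that mark radial glia and neural stem cells, in the brain and the spinal cord of mouse embryos with and without spinal muscular atrophy (SMA). The genes were chosen by their Ensembl identifiers from a list of 10, of which 9 are rows in the deposited table of 10481 genes. They were Nes (ENSMUSG00000004891), Vim (ENSMUSG00000026728), Sox2 (ENSMUSG00000074637), Pax6 (ENSMUSG00000027168), Fabp7 (ENSMUSG00000019874), Slc1a3 (ENSMUSG00000005360), Prom1 (ENSMUSG00000029086), Notch1 (ENSMUSG00000026923) and Hes5 (ENSMUSG00000048001). Hes1, the 1 remaining gene of the list, was not analysed here. By the study's methods, the controls had 1 working copy of mouse Smn and the human SMN2 transgene (Smn+/-; SMN2tg/0). The SMA embryos had no mouse Smn and the same transgene (Smn-/-; SMN2tg/0), and both came from the severe Taiwanese strain. The sample descriptions label the controls WT. All embryos were taken at embryonic day 14.5, and each of the 4 groups of tissue and genotype held 3 libraries, 12 in all. The samples are called biological triplicates, but the labels do not say whether an embryo gave both tissues or whether tissue was pooled.

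Radial glia are the stem cells of the embryonic nervous system. Their cell bodies line the ventricles and the central canal, they divide there to give neurons and later astrocytes, and their long processes guide newborn neurons outwards. Notch signalling keeps them from differentiating: a ligand on a neighbouring cell activates the Notch receptor, whose cleaved part enters the nucleus, joins the DNA-binding protein RBPJ and turns on Hes genes, which repress the genes that make neurons. In ribosome profiling, the stretches of mRNA covered by ribosomes are sequenced, so a footprint count follows both the amount of an mRNA and the ribosomes on it. In whole tissue, fewer cells of a type and less RNA for each cell cannot be told apart.

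Library totals ran from 3683842 to 12793955 counts. Each of the 9 genes was well counted, with between 80 (Hes5) and 8232 (Vim) counts in a library. Names of other genes were at hand for 1999 of the 10481 identifiers. The tissue labels were checked with 2 named transcription factors of the forebrain (Otx2, also of the midbrain, and Fezf2), whose summed level was 146 to 179 normalized CPM (the share of a library's counts, scaled to a common total) in the brain libraries. It was 1.52 to 12.5 in 5 of 6 spinal cord libraries but 53.4 in control spinal cord library 1. The next highest were SMA spinal cord library 1 with 12.5 and SMA spinal cord library 3 with 9.49. In contrast, 7 named Hox genes of the hindbrain and spinal cord summed to 1.86 to 5.30 CPM in brain and 346 to 626 CPM in spinal cord. Smn1 had no name at hand and was not analysed here, which leaves the genotypes unchecked by the counts.

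To compare levels between genes, CPM values were divided by the deposited gene length in kilobases (kb), which counts all exons, whereas footprints lie on coding sequence. Fabp7, which encodes the brain lipid-binding protein of radial glia, had the highest level per kb of the 9 genes in every group, with 295 ± 47.2 CPM per kb in control brain and 228 ± 40.1 in control spinal cord (SD, n = 3). Vim, which encodes the intermediate filament protein vimentin, came next with 219 ± 25.6 and 136 ± 10.1 CPM per kb. Among all genes, both lay at percentiles from 97.1 to 99.1 in the 4 groups. Behind them, the order in control brain was Nes with 58.0 CPM per kb, Sox2 with 49.7, Pax6 with 38.0, Prom1 with 27.3, Hes5 with 22.7, Notch1 with 12.1 and Slc1a3 with 11.8. Libraries of Nes and Sox2, of Prom1 and Hes5, and of Notch1 and Slc1a3 overlapped, so these neighbours were not separated by the spread between libraries. The same 3 pairs overlapped in SMA brain, where Slc1a3 stood before Notch1.

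The order was different in spinal cord. In control cord, Prom1 led the 7 genes behind Vim with 33.4 CPM per kb, followed by Slc1a3 with 27.1, Nes with 24.8, Pax6 with 18.9, Sox2 with 18.6, Hes5 with 12.7 and Notch1 with 7.05. The neighbours Prom1 and Slc1a3, Slc1a3 and Nes, and Pax6 and Sox2 overlapped. In SMA cord, Slc1a3 was in front of Prom1 with 32.2 and 27.5 CPM per kb, and each neighbour from Slc1a3 down to Hes5 overlapped the next.

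**Figure D1:**
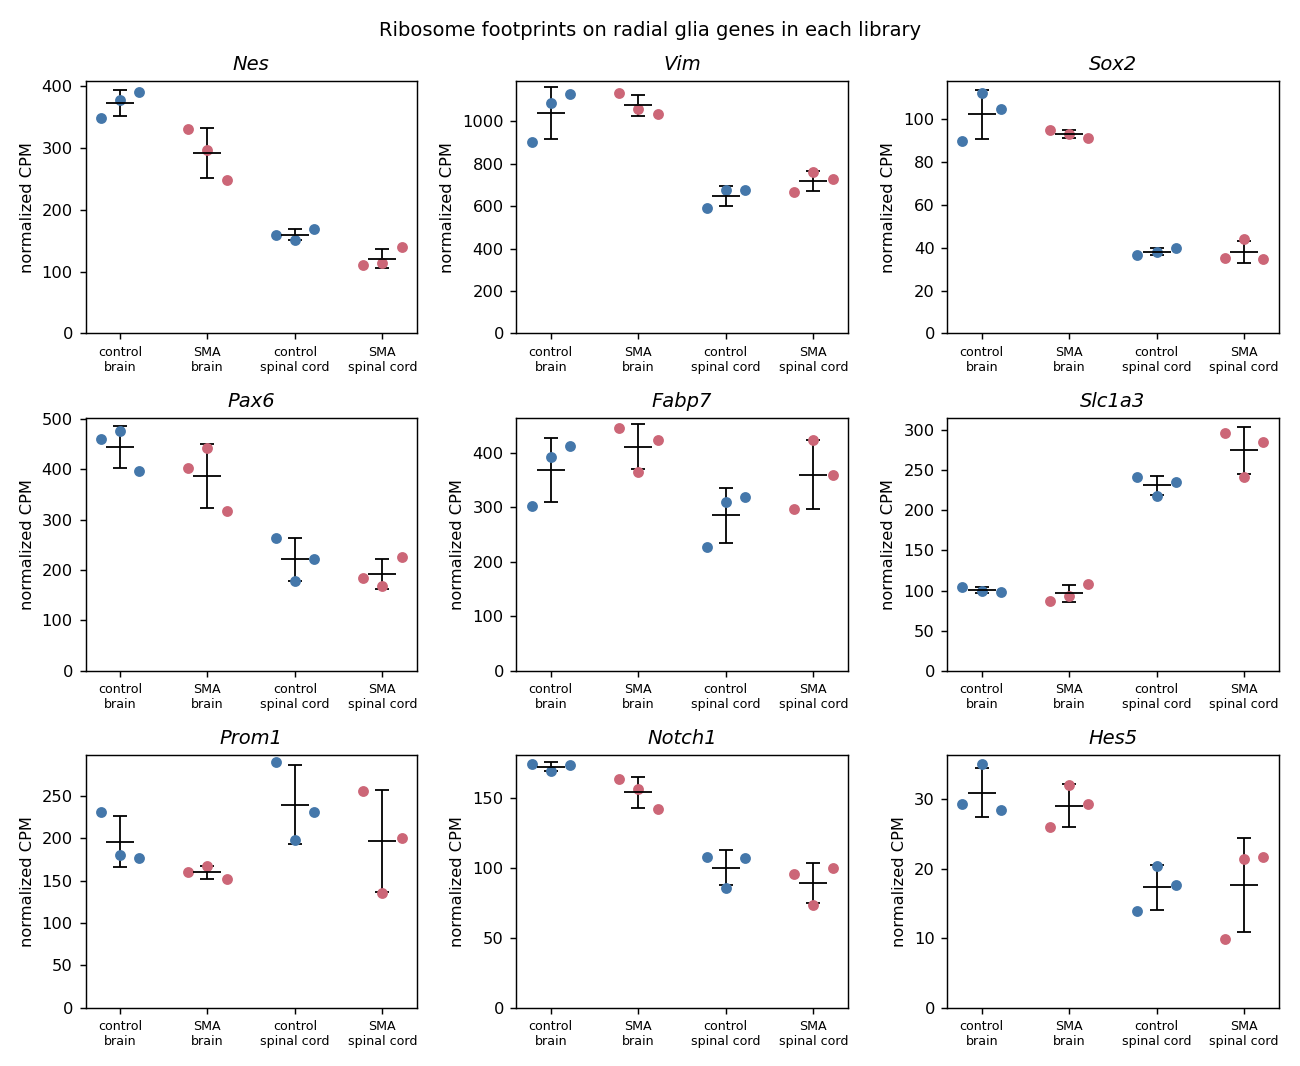
Normalized CPM (y axis, from 0) of the 9 genes in each of the 12 libraries, grouped on the x axis by tissue and genotype. Points are libraries 1 to 3 from left to right (blue, control and red, SMA), the long line is the mean and the bars are the SD. Nes, Vim, Sox2, Pax6, Notch1 and Hes5 lie higher in brain, Slc1a3 lies higher in spinal cord, and Nes is lower in every SMA library than in the control libraries of its tissue.

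Promoter sequences were at hand for all 9 genes, from RefSeq on mouse build GRCm38.p6, as the 250 bases before and 50 after a start site. They are shown for Hes5, the Notch target of the list, for Sox2 and Slc1a3, which had the largest differences of the 9 between the tissues in either direction, and for Nes, whose SMA libraries lay below the control libraries in both tissues. Each was searched on both strands for the RBPJ core TGGGAA, the SOX core ACAAAG and the TATA box TATAAA, and matches are in capitals. The matches did not overlap each other. The sequences run 5′ to 3′ on the strand of the gene.
Hes5, chr4:154960673-154960972, plus strand: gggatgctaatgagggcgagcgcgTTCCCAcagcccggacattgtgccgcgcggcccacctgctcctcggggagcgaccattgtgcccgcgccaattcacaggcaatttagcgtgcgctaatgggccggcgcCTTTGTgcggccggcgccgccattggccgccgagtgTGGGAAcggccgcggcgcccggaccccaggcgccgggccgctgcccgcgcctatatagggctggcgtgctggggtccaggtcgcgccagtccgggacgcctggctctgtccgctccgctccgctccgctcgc
Sox2, chr3:34649745-34650044, plus strand: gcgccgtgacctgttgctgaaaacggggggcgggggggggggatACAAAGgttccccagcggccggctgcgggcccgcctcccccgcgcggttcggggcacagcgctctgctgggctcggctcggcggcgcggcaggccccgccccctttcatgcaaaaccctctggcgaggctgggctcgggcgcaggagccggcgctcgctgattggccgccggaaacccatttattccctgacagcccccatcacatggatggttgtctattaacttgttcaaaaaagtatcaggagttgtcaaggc
Slc1a3, chr15:8710758-8711057, minus strand: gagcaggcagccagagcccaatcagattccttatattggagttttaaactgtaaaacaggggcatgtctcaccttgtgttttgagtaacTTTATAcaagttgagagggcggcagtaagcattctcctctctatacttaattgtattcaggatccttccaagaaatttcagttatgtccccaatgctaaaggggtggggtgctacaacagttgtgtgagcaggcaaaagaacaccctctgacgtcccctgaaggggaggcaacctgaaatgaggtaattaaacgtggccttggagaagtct
Nes, chr3:87970843-87971142, plus strand: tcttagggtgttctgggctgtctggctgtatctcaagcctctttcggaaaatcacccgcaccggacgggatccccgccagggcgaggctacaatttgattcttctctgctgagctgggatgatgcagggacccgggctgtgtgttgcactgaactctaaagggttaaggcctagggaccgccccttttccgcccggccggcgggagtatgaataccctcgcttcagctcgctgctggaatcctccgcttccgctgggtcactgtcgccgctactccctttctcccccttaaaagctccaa

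The Hes5 window held the RBPJ core at 2 places, 226 and 82 bases before the start, and the SOX core 118 bases before it. The Sox2 window held the SOX core 206 bases before the start. In Slc1a3 the TATA letters stood 161 bases before the start, on the strand opposite to the gene, and the Nes window held none of the 3 motifs. Among all 32851 windows in the RefSeq table, 25.6% held the RBPJ core, 18.7% the SOX core and 13.6% the TATA box. A match is a description of the letters and not a measured binding site. Of the other 5 genes, Fabp7 had an RBPJ core 249 bases before its start. Vim had a TATA box 32 bases before its start, on the strand of the gene. Pax6 had a SOX core at the second of its 2 start sites, Prom1 an RBPJ core at the second of its 2, and Notch1 none.

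Brain and spinal cord were compared first, within each genotype. In 1 edgeR fit over all 12 libraries, 7 of the 9 genes differed between the tissues at an adjusted p below 0.05 in control and 7 in SMA, with 6 higher in brain and 1 lower in each genotype. Among all genes, 21.1% were called higher and 20.1% lower in brain in control, and 19.3% and 21.0% in SMA. The median difference of the 9 genes was 0.78 on the log2 scale in control and 0.74 in SMA, and that of all genes was 0.00 and -0.02. For the 7 called genes, the 3 brain and the 3 spinal cord libraries did not overlap in either genotype. This held for 55.5% of all genes that averaged 20 counts or more in control and 53.6% in SMA.

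The transcription factors had some of the largest differences. Sox2, a factor that keeps neural stem cells undifferentiated, had 89.8, 112 and 105 CPM in the control brain libraries and 36.7, 38.1 and 40.0 in control spinal cord, and its values in SMA were 95.1, 93.1 and 91.2 in brain and 35.4, 44.1 and 34.5 in spinal cord. The lowest brain library held 89.8 CPM and the highest cord library 44.1. Sox2 was 2.67-fold higher in brain in control and 2.46-fold in SMA (edgeR adjusted p = 4.98e-06 and 8.12e-06). Pax6, which patterns the dorsal forebrain and parts of the cord, had 459.8, 476 and 397 CPM in control brain and 264, 178 and 221 in control cord, and 402, 443 and 318 in SMA brain and 184, 167 and 225 in SMA cord. It was 2.01-fold and 2.02-fold higher in brain (edgeR adjusted p = 4.91e-04 and 4.95e-04). Its highest cord value, 264 CPM, was in control library 1, the library with the most forebrain footprints.

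The filament genes were also higher in brain. Nes, which encodes nestin, the filament protein of neural stem cells, had 349, 377 and 390.3 CPM in control brain against 159.5, 150.2 and 168 in control cord, and 329.7, 297 and 248 in SMA brain against 111, 113 and 139 in SMA cord. The difference was 2.33-fold in control and 2.41-fold in SMA (edgeR adjusted p = 1.30e-05 and 9.96e-06). Vim, which radial glia share with fibroblasts and vessels, had 901, 1087 and 1129 CPM in control brain and 591, 674 and 673 in control cord, with 1132, 1056 and 1035 in SMA brain and 668, 761 and 729.8 in SMA cord. Its log2 difference was smaller, 0.68 (SE 0.09) in control and 0.58 (SE 0.09) in SMA, and still larger than the spread between libraries. After a correction for each library's trend with footprint density (counts per base), it was 0.33 in control and 0.35 in SMA.

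The Notch receptor and its target shared the direction. Notch1, which encodes the receptor, had 175, 169 and 174 CPM in control brain and 108, 85.9 and 107 in control cord, and 164, 157 and 142 in SMA brain and 95.6, 73.2 and 100.0 in SMA cord. The log2 difference was 0.78 (SE 0.12) in control and 0.78 (SE 0.13) in SMA, so the receptor had nearly the same tissue difference in both genotypes. Hes5, the repressor that Notch activates, had 29.3, 35.1 and 28.5 CPM in control brain and 14.0, 20.4 and 17.6 in control cord, and 26.0, 32.1 and 29.3 in SMA brain and 9.87, 21.4 and 21.8 in SMA cord. SMA cord library 1 stood below the other cord libraries with 9.87 CPM, which came from 80 counts. The Hes5 difference of 0.84 (SE 0.25) in control and 0.74 (SE 0.26) in SMA passed the test (edgeR adjusted p = 0.0184 and 0.0386). It was the least stable of the 7, since the adjusted p was 0.0618 in control without control cord library 1 and 0.0701 without control brain library 2. In SMA, where all 12 libraries share 1 estimate of the spread, its adjusted p was between 0.05 and 0.113 in 6 of the 12 fits that left out a library, and its difference was 0.44 without SMA cord library 1 (adjusted p = 0.0832).

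Slc1a3 had the opposite pattern. It encodes the glutamate transporter GLAST, which radial glia and later astrocytes use to take up glutamate, and its levels were 105, 99.2 and 98.1 CPM in control brain and 241, 218 and 235 in control cord. In SMA they were 87.2, 93.5 and 108 in brain and 297, 242 and 286 in cord. The lowest cord library held 218 CPM and the highest brain library 108, and Slc1a3 was 2.30-fold lower in brain in control and 2.86-fold lower in SMA (edgeR adjusted p = 7.63e-06 and 1.79e-06). Set against Nes per kb, Slc1a3 had 0.226, 0.198 and 0.189 times the level of Nes in the control brain libraries and 1.14, 1.09 and 1.05 times in control cord.

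For Fabp7 and Prom1 the tissues were not separated. Fabp7 had 301, 391 and 412 CPM in control brain and 227, 309 and 318 in control cord, and 445, 365 and 422 in SMA brain and 296, 423 and 358 in SMA cord. Its log2 difference was 0.37 (SE 0.16) in control (edgeR adjusted p = 0.0882) and 0.19 (SE 0.16) in SMA (adjusted p = 0.361). The control value was at an adjusted p of 0.0341 without control brain library 1, and the sign turned to -0.05 in control and -0.07 in SMA after the density correction. Prom1, which encodes prominin-1 or CD133, a protein of the apical membrane and the cilium of radial glia, had 231, 181 and 177 CPM in control brain and 290.3, 198 and 231 in control cord, and 160.2, 168 and 151 in SMA brain and 256, 136 and 200.3 in SMA cord. The spread between cord libraries was wide, and the differences of -0.29 (SE 0.20) and -0.31 (SE 0.21) did not pass the test, although the SMA value of -0.50 without SMA cord library 2 did (adjusted p = 0.0363).

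**Figure D2:**
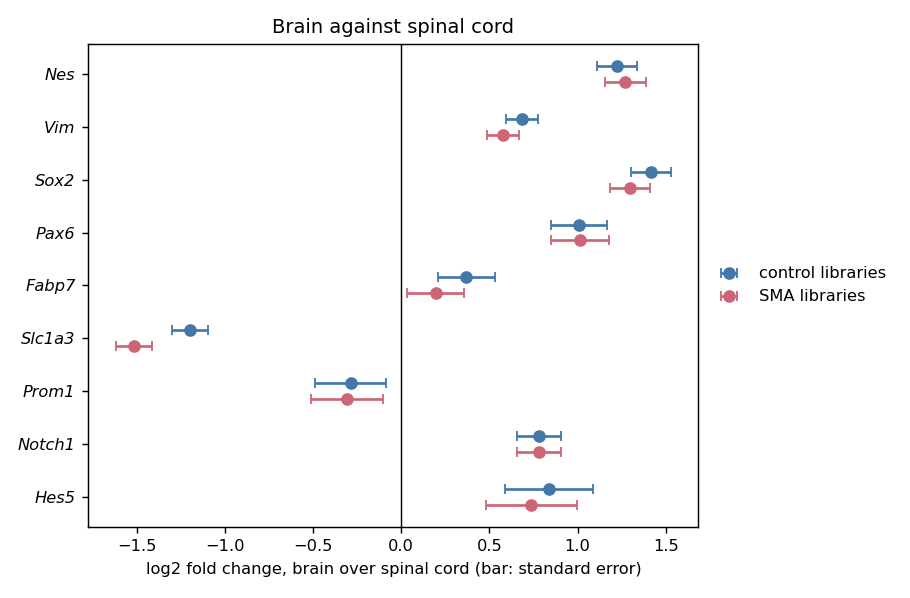
Log2 fold change of brain over spinal cord (x axis) for the 9 genes (y axis) in control (blue) and SMA (red) libraries, from 1 fit over 12 libraries; bars are the standard error. Sox2, Nes and Pax6 lie near 1.0 or above in both genotypes, and Slc1a3 lies below -1.0.

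The forebrain footprints in spinal cord libraries 1 touch this comparison, so it was repeated without both, an alternative chosen after the data were seen. Again 7 of 9 genes were called in each genotype, 6 higher and 1 lower in brain. Among all 10481 genes, 4232 were called in control and 3630 in SMA. SMA cord library 3, with 9.49 CPM of the 2 forebrain factors, stayed in every fit without both cord libraries 1. The median log2 fold change of these factors in SMA cord over control cord was 0.92 in that fit, against -1.19 with all cord libraries. Footprints of dividing cells moved with tissue too. The summed level of 13 named proliferation genes was 1066 to 1265 CPM in the 6 brain libraries, 659, 283 and 303 CPM in control cord and 338, 227 and 268 CPM in SMA cord. Of these genes 11 were higher in brain in control, among them Ccnd2, a cyclin of the G1 phase, at 2.02 and Rrm2, which makes deoxynucleotides, at 1.90 on the log2 scale, and in SMA 12 were higher and Ccne1 lower at -0.79. Whether the share of dividing cells had a part in the tissue differences of the 9 genes was not tested.

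SMA was then compared with control within each tissue, with edgeR on the 6 libraries of the tissue and the thresholds of the study, which are a log2 fold change of 0.5 or more in either direction, an unadjusted p below 0.05 and a mean CPM of 0.05 or more. None of the 9 genes passed them in brain or in spinal cord, where 1.53% and 0.983% of all genes did. These shares are 160 and 103 genes of this fit. The study reported a similar number in brain but many more in spinal cord, so its cord result was not reproduced here. At an unadjusted p below 0.05 alone, 2 of 9 genes differed in brain (Nes and Prom1) and 2 in cord (Nes and Slc1a3), where 5.05% and 6.99% of all genes did. No adjusted p was below 0.05 in either tissue. The standard errors were 0.09 to 0.15 in brain and 0.08 to 0.31 in cord. The median log2 fold change of the 9 genes was -0.11 in brain, where 7 of 9 values were below 0, and -0.02 in cord, where 5 of 9 were. Over all genes the median was 0.00 in brain and -0.01 in cord.

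Nes had the lowest p of the 9 genes in both tissues. Its brain levels were 372 ± 21.3 CPM in control and 292 ± 40.9 in SMA (SD, n = 3), and the highest SMA library with 329.7 CPM was below the lowest control library with 349 CPM. In spinal cord it had 159 ± 8.98 CPM in control and 121 ± 15.6 in SMA, with a highest SMA library of 139 CPM and a lowest control library of 150.2 CPM. Nes was 1.26-fold lower in SMA brain, a log2 fold change of -0.33 (SE 0.11, edgeR unadjusted p = 0.00934, adjusted p = 0.902). It was 1.33-fold lower in SMA cord, with a log2 fold change of -0.41 (SE 0.11, edgeR unadjusted p = 0.00662, adjusted p = 0.684). A 2-sided exact permutation test gave p = 0.1 in each tissue, the smallest that 3 libraries against 3 allow.

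With the lower fold change threshold of 0.3 that the study used for pathways, Nes passed as lower in SMA in both tissues and no other of the 9 genes passed in either. At this threshold 2.57% of all genes were lower in brain, 2.14% in cord and 0.172% in both. The 2 tissues share no library, but the same embryos may have given both. Among the 9781 genes that averaged 20 counts or more, 0.869% had every SMA library below every control library in both tissues, as Nes did. Leaving out each library in turn, its fold change ran from -0.43 to -0.23 in brain and from -0.51 to -0.35 in cord, always with an unadjusted p below 0.05. With DESeq2 the spinal cord value had an adjusted p of 0.0318, and over the alternatives this adjusted p ran up to 0.979. Without both cord libraries 1 the fold change in cord was -0.35 (edgeR unadjusted p = 0.0354). Without SMA cord library 3 the fold change of -0.51 was past the 0.5 threshold.

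The other genes of SMA brain had smaller differences. Prom1 was 196 ± 30.4 CPM in control and 159.7 ± 8.07 in SMA, a log2 fold change of -0.28 (SE 0.11, edgeR unadjusted p = 0.0233, adjusted p = 0.902). Control brain library 1, with 231 CPM, was the highest, and without it the value was -0.15 (unadjusted p = 0.131). Notch1 was 173 ± 3.01 CPM in control and 154 ± 11.2 in SMA, a log2 fold change of -0.15 (SE 0.09, edgeR unadjusted p = 0.139), which was -0.09 without SMA brain library 3. In all, 3 of 9 genes (Nes, Notch1 and Prom1) had every SMA brain library below every control brain library and none had the reverse, where 11.6% of the genes that averaged 20 counts or more were separated in 1 direction or the other. The remaining 6 overlapped, with log2 fold changes of -0.18 for Pax6, -0.11 for Sox2, -0.06 for Hes5, -0.05 for Slc1a3, 0.06 for Vim and 0.17 for Fabp7. Single libraries moved these values. Pax6 ran from -0.06 without SMA brain library 3 to -0.29 without SMA brain library 2 (edgeR unadjusted p = 0.0443), Sox2 from -0.04 without control brain library 2 to -0.21 without control brain library 1, and Fabp7 from 0.04 without control brain library 1 to 0.27 without control brain library 3.

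In spinal cord, Slc1a3 was the gene with a p below 0.05 besides Nes, in the other direction. It was 232 ± 12.01 CPM in control and 275 ± 29.3 in SMA, a log2 fold change of 0.24 (SE 0.10, edgeR unadjusted p = 0.0474, adjusted p = 0.684). The lowest SMA library with 242 CPM was just above the highest control library with 241 CPM. The unadjusted p was above 0.05 in 5 of the 6 fits that left out a library, with 0.132 without SMA cord library 1 and 0.141 without control cord library 2 as the highest, and 0.0975 without both cord libraries 1. Nes and Slc1a3 were the 2 genes whose cord libraries did not overlap, where 14.7% of the genes that averaged 20 counts or more were separated.

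The other cord values overlapped between the genotypes. Fabp7 was 285 ± 50.1 CPM in control and 359 ± 63.3 in SMA, a log2 fold change of 0.32 (SE 0.17, edgeR unadjusted p = 0.098), which was 0.08 after the density correction. The p of Fabp7 changed sides with the setting. It was 0.00802 with the replicate number as a block, 0.0443 with DESeq2, 0.0284 without SMA cord library 1 (log2 fold change 0.44) and 0.0179 without both cord libraries 1 (0.30), whereas the fold change was 0.19 without control cord library 1 and 0.19 without SMA cord library 2, with edgeR unadjusted p of 0.257 and 0.311. Vim had 0.14 (SE 0.08), and the same correction turned it to -0.04. Prom1 had -0.29 (SE 0.24), with values from -0.53 without SMA cord library 1, where it passed the thresholds of the study, to -0.09 without SMA cord library 2, and -0.36 without both cord libraries 1. Pax6 had -0.21 (SE 0.17), Notch1 had -0.17 (SE 0.15), Sox2 had -0.02 (SE 0.12) and Hes5 had 0.01 (SE 0.31). Pax6 was at -0.06 without control cord library 1, -0.03 without both cord libraries 1 and -0.35 without control cord library 2. Notch1 was at -0.05 without SMA cord library 2 and -0.28 without control cord library 2. Sox2 and Hes5 were nearest to 0, but the error of Hes5 was the widest of the 9, and without both cord libraries 1 it was at 0.17.

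**Figure D3:**
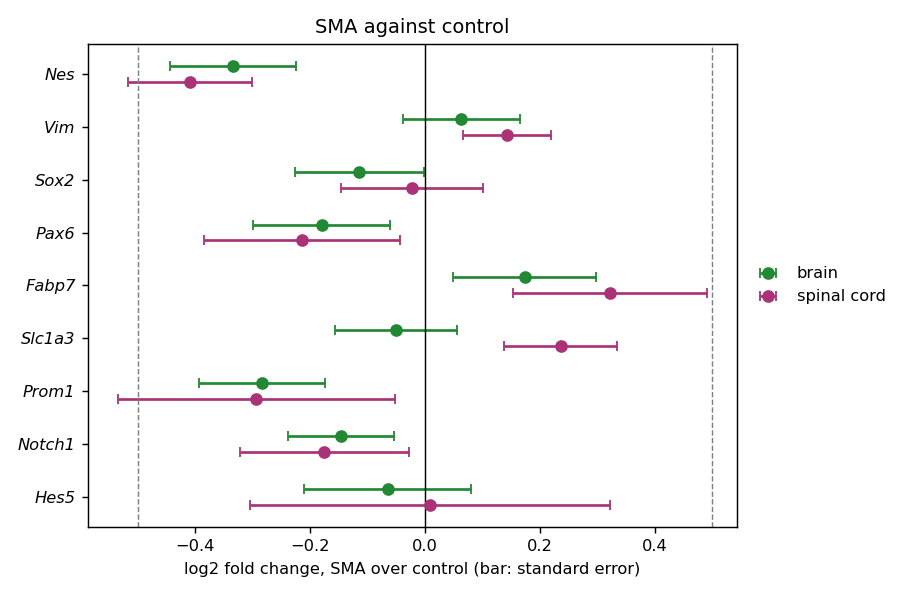
Log2 fold change of SMA over control (x axis) for the 9 genes (y axis) in brain (green) and spinal cord (purple), each from a fit on 6 libraries; bars are the standard error and dashed lines the 0.5 threshold. No gene reaches a dashed line, and Nes is the lowest in both tissues.

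The interaction term of the 12-library fit asked whether SMA and control differed by unequal amounts in the 2 tissues. None of the 9 genes had an adjusted p below 0.05, nor did any gene of the table (0.0%). Slc1a3 was the only gene of the 9 at an unadjusted p below 0.05, with a difference of -0.31 (SE 0.14) on the log2 scale for the tissue contrast in SMA minus that in control (edgeR unadjusted p = 0.0481, adjusted p = 1), and 2.38% of all genes were below that p. For Nes the interaction was 0.05 (SE 0.16), so a difference between its fold changes in the 2 tissues was not detectable with these errors. The ratio of Slc1a3 to Nes per kb, chosen after the values were seen, joins 2 genes that were already separated in opposite directions in cord, so it is given with no test. It was 1.09 ± 0.0422 in control cord and 1.72 ± 0.253 in SMA cord (SD, n = 3), with 2.01, 1.61 and 1.55 in SMA libraries 1 to 3. The difference was 0.65 on the log2 scale. In brain the ratio was 0.204 ± 0.0195 in control and 0.255 ± 0.0665 in SMA, where the libraries overlapped.

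**Figure D4:**
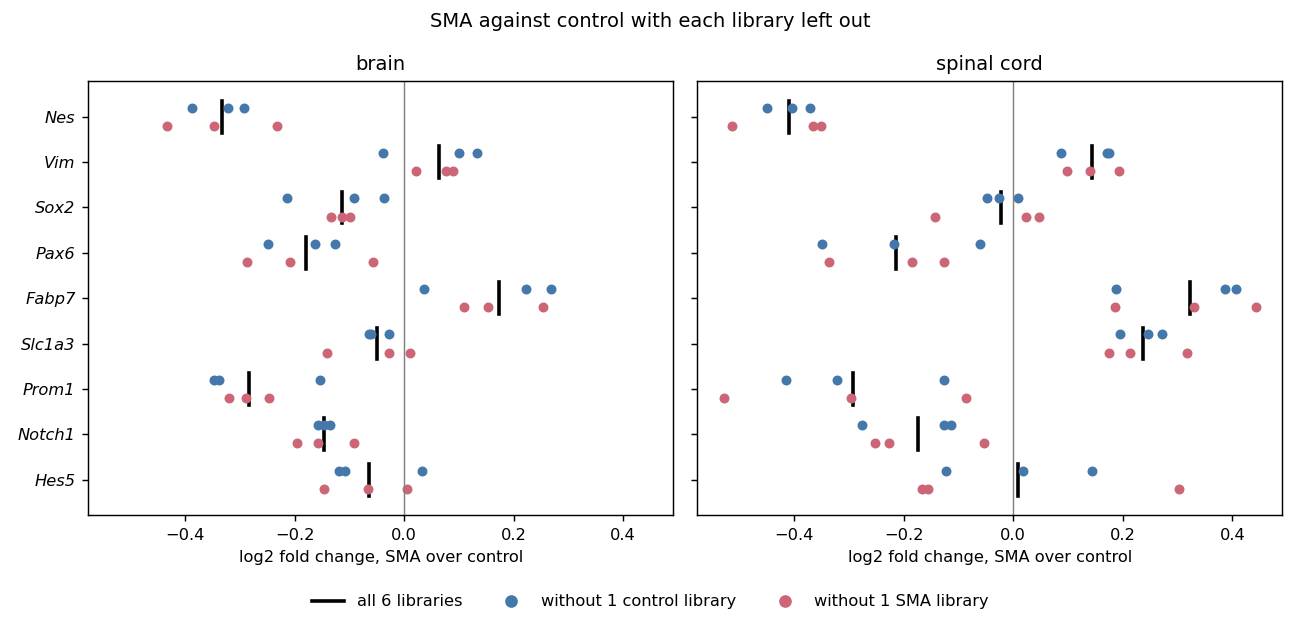
Log2 fold change of SMA over control (x axis) for the 9 genes (y axis) in brain (left) and spinal cord (right) with all 6 libraries (black line) and with 1 control (blue) or 1 SMA (red) library left out. Nes stays between -0.51 and -0.23 in both tissues, while Vim, Slc1a3 and Hes5 in brain and Sox2 and Hes5 in cord cross 0.

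Other genes of the Notch pathway were taken from a list of 36, of which 6 had a name at hand. None passed the thresholds of the study in SMA brain or cord. The ligands Dll1 and Dll3, which newborn neurons and committed progenitors make, were nearest in brain. Dll1 had 61.3, 65.8 and 58.8 CPM in control brain and 51.4, 52.1 and 45.7 in SMA brain, a log2 fold change of -0.30 (SE 0.12, edgeR unadjusted p = 0.0247). Dll3 had 34.1, 33.8 and 36.4 CPM and 23.8, 30.2 and 27.6 CPM, a log2 fold change of -0.33 (SE 0.14, edgeR unadjusted p = 0.033). For both ligands every SMA brain library was below every control brain library, but both adjusted p were 0.902 with edgeR. In cord their values were -0.04 (SE 0.16) and -0.14 (SE 0.13). There Numb, an inhibitor of Notch, was the named gene of the pathway with a p below 0.05. It had 61.4, 45.4 and 45.4 CPM in control cord and 41.9, 38.3 and 38.5 in SMA cord, a log2 fold change of -0.37 (SE 0.15, edgeR unadjusted p = 0.0374, adjusted p = 0.684), and every SMA library was below every control library. Its highest library was control cord library 1, and without that library the value was -0.20 (edgeR unadjusted p = 0.102).

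Between the tissues, in control, Dll1 at 0.85 and Dll3 at 0.44 were higher in brain, as the receptor and Hes5 were, while Psen2 at -1.21 and Aph1a at -0.38, genes of the gamma-secretase enzyme that cleaves Notch and many other proteins, were lower. In SMA, Dll1 was higher at 0.56 and Psen2 and Aph1a were lower at -1.32 and -0.62. Ncstn, also of this enzyme, and Numb did not pass the test in either genotype.

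A second list held 46 other genes of neural progenitors, of which 11 had a name. None passed the thresholds of the study in SMA brain or cord, and their median log2 fold change was -0.02 and 0.10. Id2, an inhibitor of factors that drive differentiation, was the named gene of this list with a p below 0.05 in SMA brain, and it was higher there. It had 82.7, 102 and 104 CPM in control brain and 123, 128 and 114 in SMA brain, a log2 fold change of 0.36 (SE 0.12, edgeR unadjusted p = 0.00787, adjusted p = 0.902). Every SMA brain library was above every control brain library. In cord its value was 0.16 (SE 0.14). Without both cord libraries 1, Lhx2 passed the thresholds as lower in SMA cord at -0.80 (SE 0.29, edgeR unadjusted p = 0.0304). Between the tissues 4 were higher in brain in each genotype, namely Nr2e1, Lhx2, Sox9 and Id4. Lhx2, a factor of the early cortex, was at 2.43 in control and 3.16 in SMA, and Sox9, a factor of radial glia and astrocytes, was at 0.72 and 0.70. Of the cord libraries, Lhx2 was highest in libraries 1, with 38.3 CPM in control and 27.8 in SMA. In control 4 were lower in brain (Aldoc, Slc1a2, Id3 and Metrn), and in SMA these 4 with Ednrb and Sparc. Slc1a2, which encodes the second glutamate transporter of glia, was at -0.55 and -0.71, and Aldoc, a glycolytic enzyme of astrocytes, at -0.75 and -1.03, in the direction of Slc1a3. Both named genes of early neuron commitment were higher in brain, with Gadd45g at 1.69 in control and 1.89 in SMA and Btg2 at 0.83 and 0.89, and none passed in SMA against control.

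Marker lists of other cells were set beside the SMA comparisons. The 6 named neuron genes summed to 5299.9 to 6405 CPM in control brain, 5767 to 6541 in SMA brain, 4981 to 6301 in control cord and 5917 to 7136 in SMA cord, and none of them passed the thresholds. Of these genes, Mapt was higher in SMA cord at 0.37 (SE 0.14, edgeR unadjusted p = 0.0324, adjusted p = 0.684). Its value was 0.26 without control cord library 1 (edgeR unadjusted p = 0.0839) and 0.37 without both cord libraries 1 (edgeR unadjusted p = 0.00223). Of the 13 proliferation genes none passed in brain, where their median log2 fold change was -0.17. Of these, 2 had an edgeR unadjusted p below 0.05 in brain, both lower in SMA. They were Cdc6 at -0.37 (SE 0.17) and Gmnn, an inhibitor of DNA licensing, at -0.36 (SE 0.13). In cord the median of the 13 was -0.50, and 1 passed: Gmnn at -0.76 (SE 0.24). Control cord library 1, which held the forebrain footprints, also had the highest proliferation sum of the cord. Without it the median was -0.06 and Gmnn was at -0.56. Without both cord libraries 1 the median was -0.25, Gmnn was at -0.43 and none of the 13 passed. With all libraries and the fold change threshold of 0.3, Gmnn passed as lower in SMA in both tissues, as Nes did. Of 2 named genes of meningeal fibroblasts, Col1a1 was lower in SMA brain at -0.95 (SE 0.35), with sums for both genes of 4.83 to 9.41 CPM in control and 2.46 to 4.82 in SMA. In cord these sums were 35.7 to 81.3 CPM in control and 27.2 to 48.9 in SMA, and without both cord libraries 1 the other gene, Aldh1a2, passed as lower in SMA cord at -0.53 (SE 0.14).

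Single named genes stood for 4 further cell types. Slc4a1 of red cells was higher in SMA cord at 2.08 (SE 0.57), with 1.04 to 1.75 CPM in control and 2.72 to 10.7 in SMA, and did not pass in brain. Esam of endothelium, Cd68 of macrophages and Nfib of glia passed in neither tissue, and no Schwann cell or ganglion gene had a name. The part of these cells in the values of the 9 genes was not tested.

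The depth of a library moved with some of the genes. In each of the 4 groups, Fabp7 was lowest and Prom1 highest in the deepest library. Among the 9781 genes that averaged 20 counts or more, 8.14% were lowest in the deepest library of all 4 groups and 4.52% were highest. Vim was lowest there in 3 groups and Slc1a3 highest in 3, whereas Nes was lowest in 2 and highest in none. The SMA cord libraries, with 5162190 to 8027322 counts, were all shallower than the control cord libraries, with 10315064 to 12793955 counts, so depth and genotype cannot be told apart in cord. The control brain libraries, with 4207100 to 9117017 counts, were also all shallower than the control cord libraries. Depth and tissue therefore cannot be told apart in control. In SMA the totals of the tissues overlapped, with 3683842 to 5406430 counts in brain.

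The 9 genes were also compared with the rest of the table for shape across libraries. Each gene with a mean of at least 10 CPM was correlated with the mean of the 9 genes within each tissue over its 6 libraries, 8481 genes in all. The first by mean r was Vcl, which encodes the adhesion protein vinculin, with r = 0.86 in brain and 0.87 in cord. The next named genes were Pigyl, Aldh16a1, Pelp1 and Ankra2, at ranks 8, 13, 18 and 19. These are descriptions over 6 libraries that share their depth, and carry no test.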

How the data were processed

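Footprints of ribosomes were counted in 12 libraries. According to the methods and the labels, the authors trimmed reads (cutadapt 4.1), removed rRNA and tRNA reads, aligned the rest to the mouse genome (STAR 2.5.3a, GRCm38.p6), and left out genes under an FPKM limit. They deposited raw counts for 10481 genes and a length in bases for each. The counting tool is not given in the sources used here. Libraries of a group differed by more than sampling noise (chi-square per gene 3.98 to 23.7).

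The counts went into edgeR 4.0.16 under R 4.3.3 (TMM, quasi-likelihood F-test, no covariate), as 6 libraries of 1 tissue for SMA against control and as all 12 for tissue contrasts and interaction. Tests are 2-sided, and adjusted p-values are Benjamini-Hochberg values from edgeR over all 10481 genes. Standard errors come from dividing the unshrunk log2 fold change by the root of F. CPM values use TMM factors of all 12 libraries. Fits were tested on simulated data. With 3 libraries a group, each p-value sets a difference against a spread between samples that is estimated with information from all genes. The replicate status of the samples rests on the labels and the study's text. The alternatives were DESeq2 1.42.0, library size alone, filterByExpr, the replicate block, a density correction (each library's loess trend of log2 CPM on mean counts per base removed), a fold change threshold of 0.3, 1 fit for all libraries and each library left out.

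Every gene of the list is described. The genes, the other lists and the tests were chosen with earlier results of these data known. In SMA against control, list members are named where they passed the thresholds or had an unadjusted p below 0.05 in the main fit. Notch ligands and genes of short lists are also named, and between the tissues only some of the genes that passed are. The 5 genes most alike are the first with a name. A few genes of the other lists are not reported here. Names came from a part of the study's supplement. Motifs and figures were made in Python 3.11.15 (scipy 1.17.1, pandas 2.3.3, numpy 2.4.6, matplotlib 3.10.9).

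Replicate numbers were checked by the correlation of deviations from group means. For SMA brain and SMA cord, same-numbered libraries gave r = 0.37, 0.127 and 0.154, all over 0.1. Unlike numbers gave 0.219 for brain library 3 with cord library 2, and 0.145 for brain library 2 with cord library 3. Only libraries 1 therefore stood out, and these values do not settle whether the numbers pair. The labels state no pairing. In the 3 other pairs of groups at least 1 same-numbered pair was below 0.1. Control and SMA cord gave 0.243, 0.704 and -0.442 for libraries 1 to 3, of which the last was the lowest same-numbered value of all. Unlike numbers of these 2 groups ran from -0.787 to 0.542.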

Additional observations from a re-analysis of the deposited data

How the results depend on the processing

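At the thresholds of the study, no gene of the 9 passed in brain and none in spinal cord under DESeq2, library size alone, filterByExpr, the density correction, the replicate block or 1 fit over all libraries. With a fold change threshold of 0.3, 1 gene passed in each tissue, Nes. Leaving out each library in turn gave 0 to 0 genes past the thresholds in brain and 0 to 1 in cord (Nes without SMA cord library 3, Prom1 without SMA cord library 1). Among all 10481 genes, 83 passed in cord without SMA cord library 3 and 388 without SMA cord library 1, against 103 with all 6 libraries. The median log2 fold change of the 9 genes ran from -0.15 to -0.06 in brain and from -0.17 to 0.024 in cord. Between the tissues, 6 to 8 genes were called in control and 6 to 8 in SMA with a library left out, and 0 by the interaction.

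With the replicate number as a block, 2 genes in brain and 6 in cord had an unadjusted p below 0.05, against 2 and 2 without it, and none passed the thresholds. Among all 10481 genes, 509 in brain and 1438 in cord had such a p with the block, against 529 and 733 without it. The blocked fit called 8 genes between the tissues in control, where Fabp7 joined at 0.37 (edgeR adjusted p = 0.0471), and 7 in SMA. A blocked fit of the 6 SMA libraries alone, chosen after the data were seen, also called 7. Among all 10481 genes, the blocked fits called 4587 in control, 4422 in SMA and 3745 with the 6 SMA libraries alone. The block turned Hes5 in cord to -0.051.

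Signs turned for 3 genes in brain and 3 in cord, and for Fabp7 between the tissues. Leaving out each library in turn, Slc1a3 in brain ran from -0.14 to 0.010, Vim from -0.038 to 0.13 and Hes5 from -0.15 to 0.032. In cord, Hes5 ran from -0.17 to 0.30 and Sox2 from -0.14 to 0.047. The density correction turned Vim to -0.044 in brain and -0.040 in cord, and Fabp7 between the tissues to -0.049 in control and -0.071 in SMA. With library size alone, Hes5 in cord was -0.018. The cause was not tested. Levels per kb were not recomputed with coding length, since no protein table was at hand.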
